A study of Mus musculus with 17 samples.

Results

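The 10 genes described here mark the principal cell of the kidney collecting duct and were chosen by name, for that role, among the 35971 genes of the series. Earlier results of these data were known when they were chosen. They are Aqp2, Aqp3 and Aqp4 (water channels), Avpr2 (the vasopressin receptor), Scnn1a, Scnn1b and Scnn1g (the subunits of the epithelial sodium channel ENaC), Nr3c2 (the mineralocorticoid receptor), Hsd11b2 (the enzyme that inactivates glucocorticoids) and Fxyd4 (a regulator of the sodium pump). All 10 passed the filter on low counts, as did 17011 genes in all. RNA of whole mouse kidney was sequenced from 17 mice in 5 groups, and all 17 carried the lsl-PRCC-TFE3 knock-in allele, a fusion gene of translocation renal cell carcinoma that stays silent until Cre removes a stop cassette. KSP-Cre, driven by the promoter of cadherin 16, is active in kidney tubule epithelium. The 4 Cre(-) kidneys held no KSP-Cre, and of these replicates 1 and 2 carried HIF1af/f while replicates 3 and 4 carried no flox allele. The other groups were KSP-Cre(+): 3 PRCC-TFE3 KI kidneys without a flox allele, 4 Hif1α KO kidneys with HIF1af/f, 3 Hif2α KO kidneys with HIF2af/f and 3 double knockout (DKO) kidneys with both. The age of the mice is not given in the labels, and the sample numbers in the labels mostly follow the groups, so that order of handling and genotype cannot be told apart.

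Principal cells reclaim water and sodium at the end of the nephron. Vasopressin binds Avpr2 on the blood side of the cell, cyclic AMP rises, and Aqp2 is moved into the luminal membrane, while Aqp3 and Aqp4 let the water leave on the blood side. Sodium enters through ENaC and is pumped out by the Na,K-ATPase, a flow that aldosterone raises through Nr3c2, and Hsd11b2 keeps the receptor free of corticosterone.

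Upstream sequence is shown for 4 members, since Aqp2 and Aqp3 changed in opposite directions in KI kidneys and Scnn1b and Scnn1g, which neighbour each other on chromosome 7, had the most alike pattern of any pair below. Each line holds the 250 bases before the transcription start given by RefSeq (GRCm38.p6), read 5′ to 3′ on the strand of the gene. The windows are chr15:99578806-99579055 (+) for Aqp2, chr4:41098184-41098433 (-) for Aqp3, chr7:121864788-121865037 (+) for Scnn1b and chr7:121734229-121734478 (+) for Scnn1g. Capitals mark matches, on either strand, to the motifs named after the sequences.
Aqp2: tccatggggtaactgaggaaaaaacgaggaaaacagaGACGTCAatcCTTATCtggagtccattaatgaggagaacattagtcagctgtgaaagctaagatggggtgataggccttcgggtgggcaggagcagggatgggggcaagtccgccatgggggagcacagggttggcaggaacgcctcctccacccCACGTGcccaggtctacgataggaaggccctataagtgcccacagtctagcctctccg
Aqp3: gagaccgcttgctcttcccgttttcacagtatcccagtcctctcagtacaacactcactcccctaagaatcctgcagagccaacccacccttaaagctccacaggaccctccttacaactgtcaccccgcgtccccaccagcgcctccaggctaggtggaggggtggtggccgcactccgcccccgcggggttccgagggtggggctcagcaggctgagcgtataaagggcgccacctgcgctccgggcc
Scnn1b: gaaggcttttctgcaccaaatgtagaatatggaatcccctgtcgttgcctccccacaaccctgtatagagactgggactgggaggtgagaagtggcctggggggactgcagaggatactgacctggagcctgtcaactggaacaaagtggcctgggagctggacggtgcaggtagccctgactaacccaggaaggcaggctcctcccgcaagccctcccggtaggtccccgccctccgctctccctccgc
Scnn1g: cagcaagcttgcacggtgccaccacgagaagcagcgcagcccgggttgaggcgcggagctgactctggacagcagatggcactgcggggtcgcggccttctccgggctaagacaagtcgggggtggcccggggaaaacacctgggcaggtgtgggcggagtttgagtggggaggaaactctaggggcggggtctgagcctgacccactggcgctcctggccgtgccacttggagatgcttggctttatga

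Windows of this kind were found for 7 of the 10 members: Aqp2, Aqp3, Avpr2, Scnn1b, Scnn1g, Fxyd4 and Nr3c2. The letters searched were picked after the Aqp2 sequence had been seen. CACGTG, the E-box that TFE3 and its relatives bind, stood in the Aqp2 window alone, as it did in 6.02% of 32851 promoters of the same length. ACGTG, a form of the core of the hypoxia response element, overlaps that E-box and was also found in the Aqp2 window alone (16.6% of all promoters). The other form of this core, GCGTG, was not searched over all promoters, and it does stand in the Nr3c2 window. GACGTCA, which differs from the cyclic AMP response element TGACGTCA by its missing first base, and GATAAG, the GATA factor motif, were likewise found only before Aqp2 (2.78% and 6.55% of all promoters). TCATGTG and the full TGACGTCA were in none of the 7 windows (3.25% and 1.55% of all promoters). The paper names TCAYRTGA (Y is C or T, R is A or G) as the sequence bound by the TFE3 family, and both TCATGTG and TCACATG match its start. TCACATG was not searched over all promoters, and it does stand in the Nr3c2 window, on the opposite strand.

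Libraries held 16504419 to 24668827 expected counts. Values below are CPM, a gene's counts relative to its library total after scaling with TMM factors, which set the bulk of genes level between libraries, or TPM, a relative abundance that also divides by transcript length. Summed over the whole gene, Hif1a was 186 ± 15.9 CPM in Hif1α KO and 214.5 ± 26.5 in KI kidneys, and Epas1, which encodes HIF2α, was 144 ± 6.68 in Hif2α KO and 181 ± 9.46 in KI kidneys (SD). Neither difference passed the test (edgeR adjusted p = 0.372 and 0.0788), and a whole-gene sum does not isolate a deleted exon. All p-values measure the spread between these kidneys. Some libraries lay at an end of the range for many of the 10 genes. Hif2α KO replicate 3 was the highest of the 13 KSP-Cre(+) kidneys for 6 members. KI replicate 2 was among the lowest 3 for 8 members and KI replicate 3 for 6. The summed TPM of 3 adipocyte genes was 2682 in KI replicate 2, against 5.65 to 379 elsewhere.

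Per transcript length, Aqp2 was the most abundant member in Cre(-) kidneys at 154 ± 27.95 TPM, followed by Hsd11b2 (101 ± 15.7), Scnn1a (68.5 ± 5.12), Aqp3 (63.05 ± 5.90), Fxyd4 (35.5 ± 6.42), Scnn1b (33.2 ± 5.82), Scnn1g (18.6 ± 3.12), Avpr2 (16.1 ± 3.50), Nr3c2 (5.94 ± 0.879) and Aqp4 (2.49 ± 1.75; SD, n = 4). In KI kidneys the order changed: Aqp3 led with 209 ± 11.5 TPM, and Aqp2 followed with 87.3 ± 29.3 (SD, n = 3). The defining principal cell genes were thus detected in all groups, with Aqp4 near the detection limit.

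KI kidneys held KSP-Cre, which switches on PRCC-TFE3, and Cre(-) kidneys did not. Of these groups, only Cre(-) replicates 1 and 2 carried HIF1af/f. Between KI and Cre(-) kidneys, 9 of the 10 genes passed the threshold. Aqp3 rose in KI against Cre(-) kidneys, and Aqp2, Avpr2, all 3 ENaC subunits, Hsd11b2, Nr3c2 and Fxyd4 fell. The test was edgeR's quasi-likelihood F-test, its p adjusted over all genes after Benjamini and Hochberg and held to a threshold of 0.05. Of all genes tested, 60.9% passed in this comparison, 31.6% higher and 29.3% lower, so that 8 of 10 lower stands against a background of 29.3%. That background does not allow for the choice of members with earlier results of these data known. All 10 members had an unadjusted p under 0.05, as did 64.3% of all genes, and without KI replicate 2 the lower members numbered 7. Without overlap between the groups, 1 member was above and 8 were below in every KI library, against 28.9% and 27.7% of all genes. The median log2 fold change was -1.32 over the 10 members and 0.03 over all genes tested. In whole tissue, fewer principal cells and less RNA per cell cannot be told apart. With library totals in place of TMM factors the median of all genes moved to 0.37, and 8546 genes were higher and 2991 lower where TMM gave 5381 and 4981. The directions of the 10 members were the same under both scalings.

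**Figure D1:**
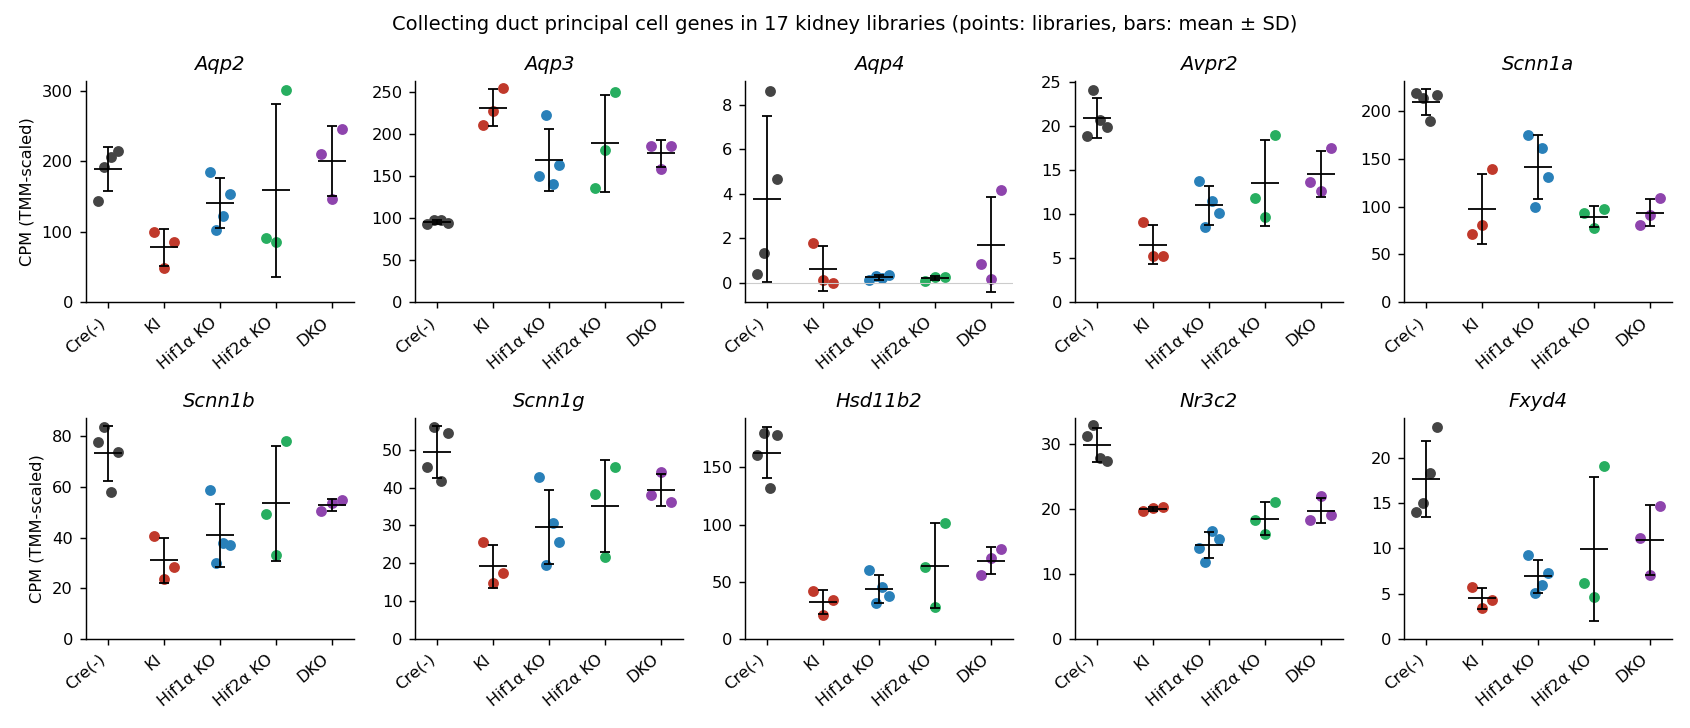
CPM of each of the 10 genes (vertical axes, linear, TMM-scaled) in the 17 kidneys by group, with a point for each library and a bar for the mean ± SD. KI points lie below the Cre(-) points for 8 genes and above them for Aqp3, and in the Hif2α KO group replicate 3 (rightmost point) stands above the other replicates for genes such as Aqp2 at 300.3 CPM.

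The luminal water channel Aqp2 was read at 144, 192, 206 and 214.5 CPM in the Cre(-) kidneys and at 99.0, 48.8 and 85.2 in the KI kidneys. Every KI value was under every Cre(-) value. The fall was 1.28 on the log2 scale (SE 0.39, edgeR adjusted p = 0.0103), and without KI replicate 2 it was 1.03 and no longer passed (edgeR adjusted p = 0.0551). In all, the KI call was lost in 4 of 17 alternatives. The others were both fits on the TPM scale and the fit with flox-bearing Cre(-) kidneys alone. Hif1α KO kidneys gave 184, 103, 122 and 153 CPM, all above KI, but the difference of 0.85 did not pass (SE 0.39, edgeR adjusted p = 0.21). Hif2α KO kidneys gave 90.8, 85.3 and 300.3 CPM, and replicate 3 was the highest value of the series. DKO kidneys gave 209.9, 146 and 245 CPM, above KI in every library, and Aqp2 was 2.58-fold higher there (log2 1.37, SE 0.41, edgeR adjusted p = 0.0407). This call was lost in 5 of 14 alternatives, on leaving out any DKO replicate or KI replicate 2 or 3. The DKO mean of 200.4 ± 50.1 was close to the Cre(-) mean of 189 ± 31.5, with a log2 difference of 0.08 and a 95% interval from -0.72 to 0.89.

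Aqp3, the water and glycerol channel of the basolateral membrane, went the other way. Cre(-) kidneys held 92.9, 97.5, 97.4 and 94.9 CPM, the narrowest spread of any member in that group relative to its mean. KI kidneys held 211, 228 and 255 CPM, all above, a rise of 2.42-fold (log2 1.27, SE 0.17, edgeR adjusted p = 1.21e-05). The knockouts lay between: 151, 223, 141 and 163 CPM in Hif1α KO, 136, 181.5 and 250.4 in Hif2α KO and 186.5, 159 and 186 in DKO kidneys. Every DKO library was below every KI library, but none of the 3 knockouts differed from KI past the threshold (log2 -0.45, -0.29 and -0.39, edgeR adjusted p = 0.138, 0.411 and 0.182). Against Cre(-), Aqp3 stayed higher in all 3 knockouts, at log2 0.82, 0.98 and 0.89 (edgeR adjusted p = 0.000407, 0.00015 and 0.000418).

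The ratio of both channels within a library does not depend on scaling between libraries. Aqp3 over Aqp2 in TPM was 0.514, 0.422, 0.379 and 0.354 in the Cre(-) kidneys and 1.71, 3.75 and 2.43 in the KI kidneys, so that Aqp3 was the lower of the pair in each Cre(-) and the higher in each KI library. The ratio was 0.662, 1.76, 0.948 and 0.862 in Hif1α KO, 1.22, 1.73 and 0.665 in Hif2α KO and 0.714, 0.877 and 0.613 in DKO kidneys. All 3 DKO ratios were below all 3 KI ratios and above all 4 Cre(-) ratios. Aqp3 made up 11.5% to 13.3% of the summed TPM of the 10 genes in Cre(-) and 43.4% to 57.75% in KI kidneys.

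**Figure D2:**
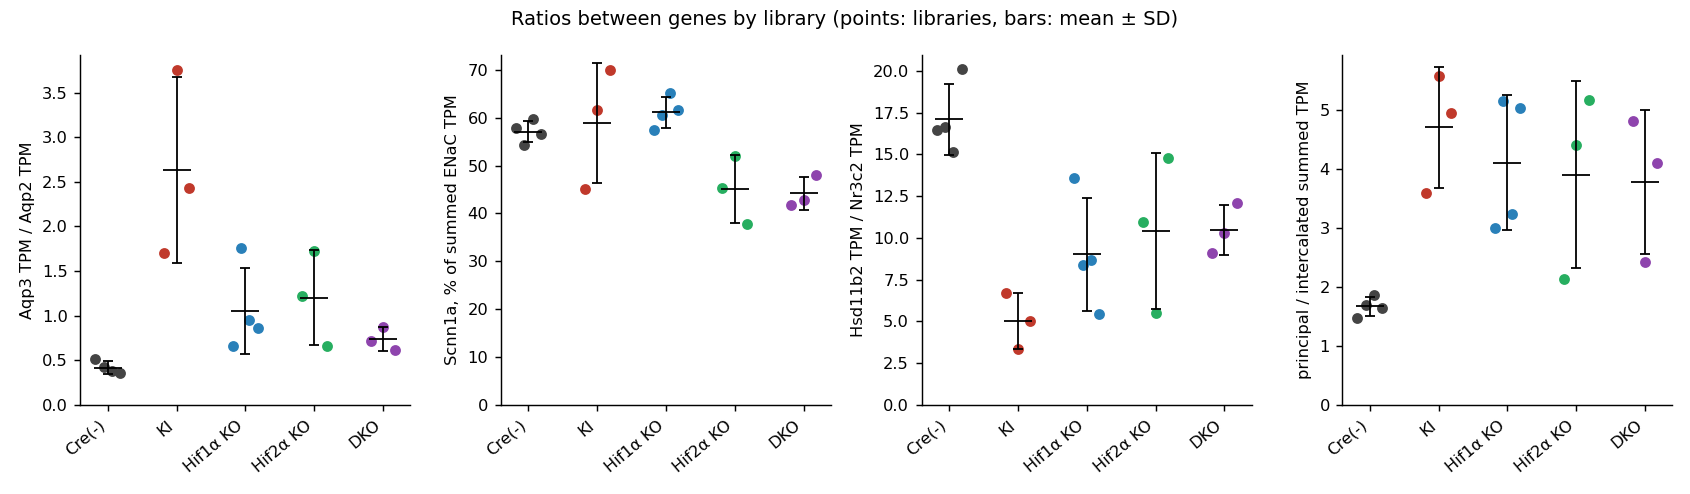
Ratios within each library (linear axes) by group, with points for libraries and bars for the mean ± SD: Aqp3 to Aqp2, Scnn1a as a percent of the summed TPM of the 3 ENaC subunits, Hsd11b2 to Nr3c2, and the summed TPM of the 10 principal cell genes to that of 7 intercalated cell genes. The Aqp3 to Aqp2 ratio is under 1 in every Cre(-) and DKO library and over 1 in every KI library.

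Aqp4, the other basolateral water channel, was close to the detection limit and is given as counts. Cre(-) libraries held 6, 25, 130 and 74 counts, KI libraries 31, 2 and 0, Hif1α KO libraries 2, 6, 4 and 9, Hif2α KO libraries 2, 6 and 5, and DKO libraries 17, 3 and 85. The 2 Cre(-) kidneys without a flox allele held the most of their group. A level of 3 counts was taken as the least a library can show, so that 5 of the 17 libraries were at or under it. These are expected counts, and the Aqp4 transcript of 5054 bases came in large steps. It held 93.96 and 31.3 in Cre(-) replicates 3 and 4, 31.3 in KI replicate 1, 62.6 in DKO replicate 3 and 0 elsewhere. The level of 3 counts does not allow for such steps. KI against Cre(-) did not pass (log2 -2.57, SE 1.16, edgeR adjusted p = 0.0677), nor did any knockout against KI, and Hif1α KO and Hif2α KO were lower than Cre(-) (edgeR adjusted p = 0.00823 and 0.0118) with all Cre(-) kidneys in the fit but not with replicates 1 and 2 of Cre(-) alone (edgeR adjusted p = 0.245 and 0.213).

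Avpr2, the receptor at the head of the vasopressin response, was read at 18.85, 24.15, 20.7 and 19.95 CPM in Cre(-) and at 9.14, 5.28 and 5.25 CPM in KI kidneys. The groups did not overlap, and the receptor was 3.19-fold lower in KI kidneys (log2 -1.68, SE 0.25, edgeR adjusted p = 3.3e-05). Hif1α KO kidneys gave 13.7, 8.57, 11.5 and 10.2 CPM (log2 0.75 against KI, SE 0.25, edgeR adjusted p = 0.0918). Hif2α KO kidneys gave 11.9, 9.67 and 19.0 CPM, each above every KI library, and the difference narrowly missed the threshold (log2 1.04, SE 0.26, edgeR adjusted p = 0.0557). DKO kidneys gave 13.6, 12.6 and 17.6 CPM and were 2.23-fold above KI (log2 1.16, SE 0.26, edgeR adjusted p = 0.0119). All DKO values were still under the lowest Cre(-) value. The exons of Avpr2 share 2347 of 2886 bases with Arhgap4 on the opposite strand, and the strand setting of the counting is not given in the sources used here, so that reads of both genes may be mixed. Arhgap4 itself was 14.6 ± 0.257 CPM in Cre(-) and 10.9 ± 5.30 in KI kidneys (edgeR adjusted p = 0.248). Against KI, Arhgap4 was higher by 0.35 in Hif1α KO, 0.83 in Hif2α KO and 0.84 in DKO kidneys on the log2 scale. None of these passed (edgeR adjusted p = 0.552, 0.182 and 0.0994), though every DKO library was above every KI library. The part of Arhgap4 reads in the Avpr2 differences was not tested.

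The 3 ENaC subunits all fell in KI kidneys. Scnn1a, the subunit without which no channel forms, held 219, 213, 189.7 and 216 CPM in Cre(-) and 71.7, 80.6 and 139.7 CPM in KI kidneys, with no overlap and a fall of 1.11 on the log2 scale (SE 0.22, edgeR adjusted p = 0.000396). Scnn1b held 77.7, 83.7, 58.05 and 73.6 CPM in Cre(-) and 40.8, 23.75 and 28.4 in KI kidneys, and fell by 1.24 (SE 0.27, edgeR adjusted p = 0.001). Scnn1g held 45.5, 56.05, 41.8 and 54.4 CPM in Cre(-) and 25.6, 14.8 and 17.3 in KI kidneys, and fell by 1.36 (SE 0.27, edgeR adjusted p = 0.000471). In each of the 3 genes the highest KI library was under the lowest Cre(-) library.

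In DKO kidneys Scnn1g stood at 38, 44.2 and 36.1 CPM, above every KI library and 2.05-fold higher (log2 1.04, SE 0.28, edgeR adjusted p = 0.0285). Scnn1b stood at 50.4, 53.5 and 54.7 CPM, also above every KI library, and did not pass (log2 0.77, SE 0.28, edgeR adjusted p = 0.0867). Scnn1a stood at 81.0, 91.3 and 109 CPM, inside the KI range, with a log2 difference of -0.06 and a 95% interval from -0.54 to 0.43. This last difference turned positive, at 0.07 to 0.11, under library totals and on the TPM scale.

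Hif2α KO kidneys had the same order, with 93.2, 77.2 and 97.7 CPM of Scnn1a, 49.3, 33.1 and 78.1 of Scnn1b and 38.4, 21.75 and 45.5 of Scnn1g. Hif1α KO kidneys held more Scnn1a, at 175, 99.7, 161 and 130.4 CPM, beside 58.7, 29.9, 38.05 and 36.9 of Scnn1b and 42.7, 19.6, 30.6 and 25.7 of Scnn1g. None of these 6 differences from KI passed the threshold (edgeR adjusted p from 0.119 for Scnn1g in Hif2α KO to 0.811 for Scnn1a in Hif2α KO). Scnn1a made up 54.3% to 59.7% of the summed ENaC TPM in Cre(-), 45.2% to 69.9% in KI, 57.3% to 65.1% in Hif1α KO, 37.7% to 52.0% in Hif2α KO and 41.7% to 48.1% in DKO kidneys. Its share was thus lower in each Hif2α KO and DKO library than in any Cre(-) or Hif1α KO library. Directly compared, Scnn1a was higher in Hif1α KO than in Hif2α KO by 0.66 and lower in DKO than in Hif1α KO by 0.60 on the log2 scale, with unadjusted p = 0.00723 and 0.0136 that did not hold after adjustment (edgeR adjusted p = 0.159 and 0.248).

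Hsd11b2 showed the widest fall of the members that passed. It stood at 161, 180.2, 132 and 178 CPM in Cre(-) and at 41.4, 21.2 and 34.2 CPM in KI kidneys, a 5.05-fold difference (log2 -2.34, SE 0.36, edgeR adjusted p = 3.95e-05). Hif1α KO kidneys held 59.8, 31.3, 45.0 and 37.8 CPM, Hif2α KO kidneys 62.9, 27.8 and 101.5, and DKO kidneys 55.4, 70.9 and 78.7. All 3 DKO values were above all KI values, but the difference of 1.08 did not pass (SE 0.36, edgeR adjusted p = 0.06). Every one of the 10 knockout libraries stayed under every Cre(-) library, and Hsd11b2 was lower than Cre(-) by 1.91 in Hif1α KO, 1.35 in Hif2α KO and 1.25 in DKO kidneys on the log2 scale (edgeR adjusted p = 8.25e-05, 0.00291 and 0.00506).

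Nr3c2, the receptor that this enzyme guards, changed less. Cre(-) kidneys held 31.1, 32.9, 27.8 and 27.4 CPM and KI kidneys 19.7, 20.1 and 20.2, which do not overlap (log2 -0.58, SE 0.12, edgeR adjusted p = 0.000591). With library totals the fall was 0.23 and did not pass (edgeR adjusted p = 0.11), and in TPM the levels were 5.94 ± 0.879 and 5.50 ± 0.0788. Hif1α KO kidneys were lower still, at 14.0, 11.8, 16.6 and 15.3 CPM, each under every KI library (log2 -0.47, SE 0.12, edgeR adjusted p = 0.0335). This call was lost in 9 of 15 alternatives, among them leaving out any of the KI replicates or Hif1α KO replicate 1. Hif2α KO kidneys held 18.3, 16.1 and 21.1 CPM and DKO kidneys 18.2, 21.9 and 19.0, around the KI level, with log2 differences of -0.11 and -0.02 and 95% intervals from -0.38 to 0.15 and from -0.29 to 0.25. Compared directly, Hif1α KO kidneys held less Nr3c2 than Hif2α KO kidneys by 0.35 and less than DKO kidneys by 0.45 on the log2 scale, neither past the threshold (edgeR adjusted p = 0.17 and 0.116). The TPM of Hsd11b2 over that of Nr3c2 was 15.2 to 20.1 in Cre(-), 3.35 to 6.72 in KI, 5.43 to 13.6 in Hif1α KO, 5.52 to 14.8 in Hif2α KO and 9.07 to 12.1 in DKO kidneys. No library with KSP-Cre reached the Cre(-) range of this ratio.

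Fxyd4, a small partner of the Na,K-ATPase, was read at 14.0, 15.0, 18.3 and 23.4 CPM in Cre(-) and at 5.75, 3.39 and 4.28 CPM in KI kidneys (log2 -1.98, SE 0.43, edgeR adjusted p = 0.000967). The groups did not overlap. Hif1α KO kidneys held 9.32, 5.09, 5.98 and 7.30 CPM, Hif2α KO kidneys 6.13, 4.595 and 19.1, and DKO kidneys 11.1, 7.01 and 14.7. Each DKO library was above each KI library, and none of the 3 knockouts passed against KI (log2 0.63, 1.15 and 1.29, edgeR adjusted p = 0.421, 0.18 and 0.0694).

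**Figure D3:**
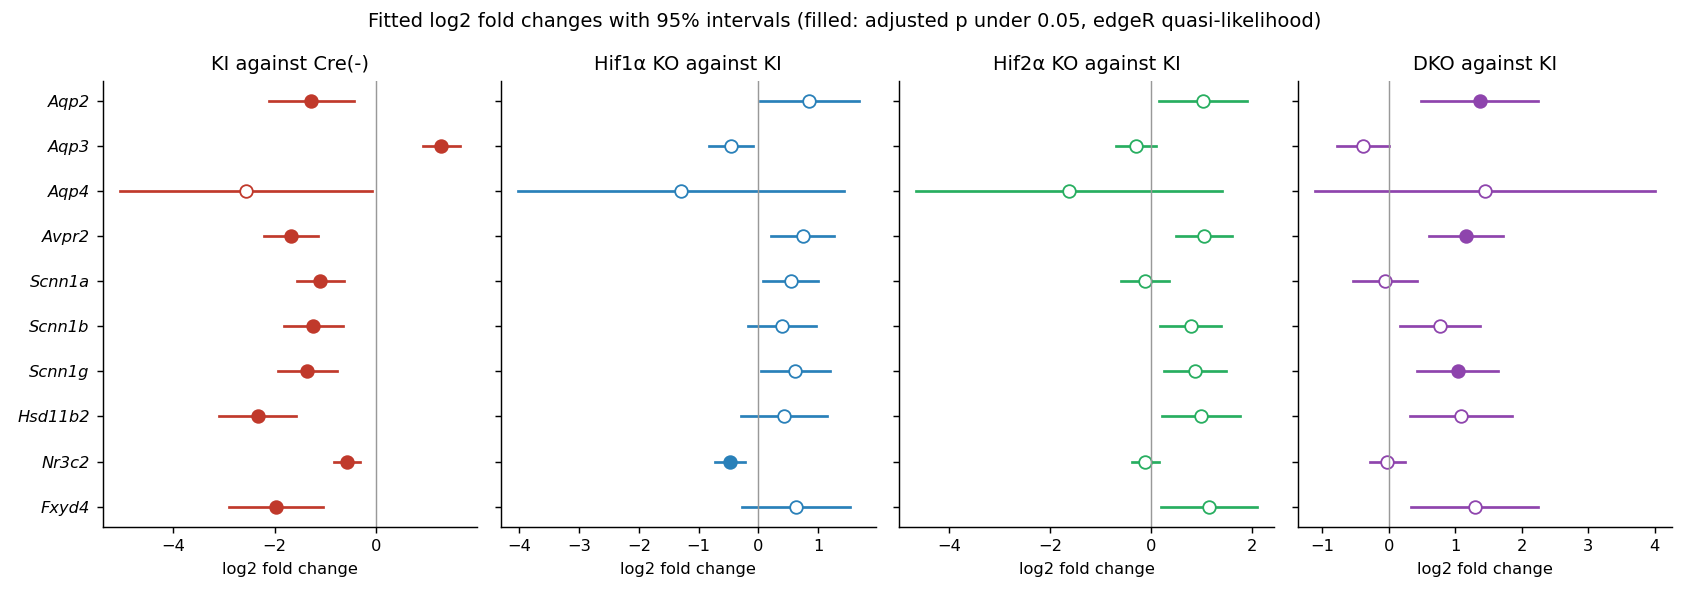
Fitted log2 fold changes (horizontal axes) of the 10 genes with 95% intervals in KI against Cre(-) and in each knockout against KI; filled points passed an edgeR adjusted p of 0.05. Of the points, 9 are filled in the first panel, 1 in the second (Nr3c2), 0 in the third and 3 in the fourth (Aqp2, Avpr2, Scnn1g).

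Of the 3 knockouts, the DKO group had the most members past the threshold against KI. Against KI, 3 members passed as higher and 0 as lower in DKO kidneys, where 12.7% of all genes passed, 6.53% higher and 6.19% lower. There 6 members had an unadjusted p under 0.05, all of them higher (29.1% of all genes in either direction). In every library, 6 members were above KI and 1 below, as were 16.5% and 17.2% of all genes. In Hif1α KO kidneys 0 passed as higher and 1 as lower by edgeR, with 5.44% of all genes called, 2.57% higher and 2.86% lower. An unadjusted p under 0.05 was found for 6, of which 4 were higher and 2 lower (22.1% of all genes in either direction). There 1 member was above and 1 below KI in every library, against 8.96% and 10.3% of all genes. In Hif2α KO kidneys 0 of 10 passed by edgeR at a background of 1.39%, 0.741% higher and 0.647% lower. Here 1 was above and 0 below KI in every library (9.52% and 10.7% of all genes). An unadjusted p under 0.05 was found for 6, all higher (19.2% of all genes in either direction), and the DESeq2 Wald test called 2, Avpr2 and Scnn1g. The median log2 fold change over the members was 0.49 in Hif1α KO, 0.83 in Hif2α KO and 1.06 in DKO kidneys, against -0.003, -0.007 and -0.003 over all genes. These comparisons share the 3 KI kidneys. The DKO count was 6 by DESeq2 (with Scnn1b, Hsd11b2 and Fxyd4), and it was 1 without KI replicate 2, 0 without KI replicate 3, 1 without DKO replicate 2, 0 without DKO replicate 3 and 2 without DKO replicate 1. With library totals, 1730 genes were higher and 589 lower in DKO than in KI kidneys, where TMM gave 1111 and 1053, and the members higher numbered 4.

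Between Cre(-) and the knockouts the members' distance differed in count. In Hif1α KO kidneys 1 member (Aqp3) was higher and 8 lower, all but Aqp2, where 61.9% of all genes passed (31.9% higher, 30.1% lower). In Hif2α KO kidneys 1 was higher and 5 lower (Aqp4, Avpr2, Scnn1a, Hsd11b2 and Nr3c2), with 61.9% of all genes called (32% higher, 29.9% lower), and in DKO kidneys 1 was higher and 3 lower (Scnn1a, Hsd11b2 and Nr3c2), with 58.3% called (30.4% higher, 27.9% lower). Every library was above Cre(-) for 1 member and below it for 6 in Hif1α KO (28.8% and 27.3% of all genes), for 1 and 4 in Hif2α KO (30.9% and 28.8%) and for 1 and 5 in DKO kidneys (30.9% and 28.5%). With library totals the lower members numbered 5 in Hif1α KO, where Scnn1a, Scnn1b and Scnn1g no longer passed, 3 in Hif2α KO and 2 in DKO kidneys. All-gene calls then moved from 5422 higher and 5115 lower to 9005 and 2815 in Hif1α KO, from 5440 and 5090 to 9454 and 2495 in Hif2α KO and from 5167 and 4749 to 9781 and 2202 in DKO kidneys. Without Hif2α KO replicate 3, all 9 members other than Aqp3 were lower in Hif2α KO than in Cre(-) kidneys. In DKO against Cre(-), Scnn1g was lower by 0.33 with TMM factors and higher by 0.13 with library totals, neither past the threshold, and fitted on DKO and Cre(-) libraries alone 7 members passed as lower.

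The knockouts were also set against each other. None of the 10 genes passed in Hif1α KO against Hif2α KO, DKO against Hif1α KO or DKO against Hif2α KO, where edgeR called 0.429%, 0.406% and 0.00588% of all genes. At an unadjusted p under 0.05 there were 2 members (Scnn1a and Nr3c2), 3 (Scnn1a, Nr3c2 and Aqp4) and 1 (Aqp4), against 14.9%, 13% and 5.58% of all genes, and DESeq2 called 0, 1 (Nr3c2) and 0. Point estimates in DKO against Hif1α KO were positive for all members but Scnn1a, and in Hif1α KO against Hif2α KO negative for all but Scnn1a and Aqp4. In DKO against Hif2α KO they were negative for Aqp3 and Scnn1b and positive for the other 8.

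**Figure D4:**
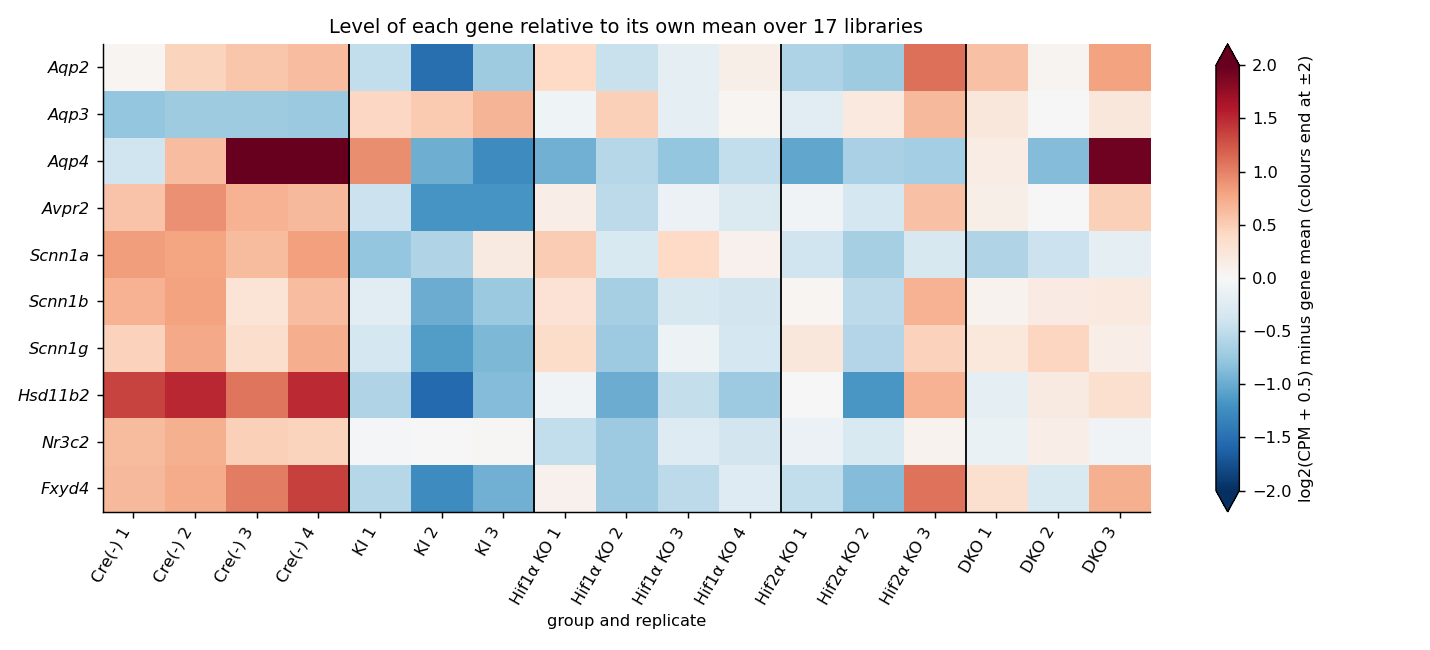
Level of each gene in each library as log2(CPM + 0.5) minus the mean of that gene over the 17 libraries, with colours ending at ±2. The 4 Cre(-) columns are mostly above 0 for genes other than Aqp3 and the 3 KI columns mostly below it, with Aqp3 the other way round, and Hif2α KO replicate 3 is unlike replicates 1 and 2 of its group.

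Single libraries moved across many members at once. Hif2α KO replicate 3 held a summed TPM of 895 over the 10 genes, against 405 and 399 in replicates 1 and 2 of that group, while its summed TPM of 7 intercalated cell genes was 173, between the 190.4 and 90.7 of the other replicates. KI replicate 2 held a summed TPM of 369, below the 433 to 561 of the Cre(-) kidneys. The other KI kidneys, at 453 and 440.3, lay inside that range. The summed TPM without Aqp3 was 375 to 489.9 in Cre(-), 156 to 257 in KI, 243 to 412 in Hif1α KO, 223 to 656.5 in Hif2α KO and 374 to 549.9 in DKO kidneys. By the sum without Aqp3 the DKO kidneys overlapped Cre(-), and KI kidneys lay below both. These sums carry no TMM factors. In DKO against Cre(-), the median log2 difference of all genes was 0.455 on the log2(TPM + 1) scale and 0.021 with TMM factors. Aqp2 alone held 239.5 TPM of the mean DKO sum of 458.7, and Scnn1a, Hsd11b2 and Nr3c2 were lower in DKO than in Cre(-) kidneys with TMM factors.

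Genes around the members were read from lists of the same pathways. In the vasopressin and cyclic AMP pathway that moves Aqp2, 5 of 15 genes were higher and 5 lower in KI than in Cre(-) kidneys, shares near the 31.6% and 29.3% of all genes. Stx3, a membrane fusion protein of the apical surface, rose from 53.9 ± 2.74 to 107 ± 12.1 CPM (log2 0.99, edgeR adjusted p = 7.58e-07), and Stx4a rose by 0.48 (edgeR adjusted p = 0.000263). Prkaca, a catalytic subunit of protein kinase A, fell by 0.39 and Snap23, a partner of the syntaxins, fell by 0.41 (edgeR adjusted p = 4.21e-05 and 0.000182). Stx3 was the only one of the 15 to pass in any knockout against KI, where 2.86%, 0.647% and 6.19% of all genes were lower in Hif1α KO, Hif2α KO and DKO kidneys. It was lower by 0.40 in Hif1α KO, 0.53 in Hif2α KO and 0.59 in DKO kidneys (edgeR adjusted p = 0.0344, 0.033 and 0.0052), each library below every KI library.

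Among 19 mineralocorticoid effectors and sodium and potassium transport genes, 0 were higher and 12 lower in KI than in Cre(-) kidneys (31.6% and 29.3% of all genes), with a median log2 fold change of -0.69. The potassium channel genes Kcnj1 (407.9 ± 17.2 to 55.6 ± 9.42 CPM, log2 -2.88) and Kcnj16 (905 ± 61.2 to 292 ± 40.3, log2 -1.63), the ENaC-activating protease gene Prss8 (log2 -1.37) and the sodium pump subunit gene Atp1b1 (log2 -1.30) were among them (edgeR adjusted p = 1.46e-06, 5.43e-08, 5.97e-07 and 7.52e-07). Kcnj1 and the pump genes are also used by other tubule segments. In Hif1α KO kidneys 2 of the 19 passed as higher against KI (2.57% of all genes), Atp1b1 by 0.52 and Kcnj16 by 0.46 (edgeR adjusted p = 0.0335 and 0.0433). None of the 19 passed in Hif2α KO kidneys by edgeR (1.39% of all genes) while 5 had an unadjusted p under 0.05 (19.2%). In DKO kidneys 1 passed as higher and 1 as lower (6.53% and 6.19% of all genes). Kcnj10 rose by 1.07 there (edgeR adjusted p = 0.0304), and the log2 fold changes of the 19 ran down to -1.59 for Zbtb16, which did not pass (edgeR adjusted p = 0.124).

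Of 10 collecting duct transcription factor genes, 5 were higher and 4 lower in KI than in Cre(-) kidneys (31.6% and 29.3% of all genes). Hoxb7 rose by 1.05, Pax2 by 1.00 and Pax8 by 0.74 on the log2 scale, while Tfcp2l1, a factor of both collecting duct cell types, fell by 0.93 from 552 ± 60.2 to 289 ± 15.2 CPM (edgeR adjusted p = 5.91e-07, 4.95e-05, 3.65e-05 and 2.58e-05). Tfcp2l1 and Ehf were higher in Hif1α KO than in KI kidneys by 0.54 and 0.86 (edgeR adjusted p = 0.0327 and 0.0343), where 2.57% of all genes were higher. Gata3 was higher in DKO than in KI kidneys by 0.79 (edgeR adjusted p = 0.039), the only 1 of the 10 to pass there, where 6.53% of all genes were higher. In Hif2α KO kidneys 0 of the 10 passed by edgeR against KI, and 0 had an unadjusted p under 0.05.

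All 12 other collecting duct genes passed in KI against Cre(-), 4 higher and 8 lower, where 60.9% of all genes passed, 31.6% higher and 29.3% lower. Edn1, which encodes endothelin 1, rose from 3.59 ± 0.676 to 21.6 ± 7.05 CPM (log2 2.58) and the keratin gene Krt18 rose by 1.88 (edgeR adjusted p = 1.7e-06 and 3.85e-06). Calb1, a calcium binding protein gene of the distal tubule and collecting duct, fell by 2.58, and Ptger3, a prostaglandin E2 receptor gene, fell by 1.23 (edgeR adjusted p = 4.58e-06 and 9.53e-07). In DKO against KI kidneys, where 6.53% of all genes were higher, 4 of the 12 rose: Slc14a2, the urea transporter gene of the inner medullary collecting duct, from 16.5 ± 4.11 to 54.7 ± 4.91 CPM (log2 1.73), Ptger3 by 0.77, Apela by 0.76 and Ptger4 by 0.71 (edgeR adjusted p = 0.0114, 0.0039, 0.00555 and 0.022). Ptger3 also rose in Hif1α KO kidneys by 0.56 (edgeR adjusted p = 0.0233), and 0 of the 12 passed in Hif2α KO kidneys by edgeR, where 3 had an unadjusted p under 0.05.

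Markers of the other tubule cells moved with these genes. All 7 intercalated cell genes fell in KI against Cre(-) kidneys, where 29.3% of all genes passed as lower. Their summed TPM was 66.2 to 127 against 260.1 to 331. All 8 proximal tubule genes fell as well (364 to 425 against 3813 to 4313). All 3 thick ascending limb, all 3 distal convoluted tubule, all 3 podocyte and 2 of 3 endothelial genes were lower too. Where 31.6% of all genes passed as higher, the injury genes Havcr1, Lcn2 and Krt20 all did, with a median log2 fold change of 5.04. So did 3 of 5 leukocyte, 2 of 3 adipocyte and 2 of 2 proliferation genes. Summed adipocyte TPM was 64.3 to 2682 in KI and 5.65 to 97.0 in Cre(-) kidneys. In DKO against KI, 0 of 7 intercalated cell genes passed by edgeR while 6 had an unadjusted p under 0.05 (29.1% of all genes). There 4 of 8 proximal tubule and 3 of 3 thick ascending limb genes passed as higher, as did 6.53% of all genes. The summed TPM of the principal cell genes over that of the intercalated cell genes was 1.47 to 1.87 in Cre(-) and 3.58 to 5.58 in KI kidneys, and spanned 2.13 to 5.17 over the knockout libraries. Without Aqp3 the ratio was 1.28 to 1.62 in Cre(-) and 2.03 to 2.49 in KI kidneys, and 1.48 to 3.79 over the knockout libraries. The part of these other cell types in the results for the 10 genes was not tested.

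In GRCm38 with the GENCODE M21 annotation, the members lie at chr15:99579055-99584547 (+) for Aqp2, chr4:41092722-41098183 (-) for Aqp3, chr18:15389496-15410982 (-) for Aqp4, chrX:73892102-73895502 (+) for Avpr2, chr6:125320659-125344943 (+) for Scnn1a, chr7:121865038-121918514 (+) for Scnn1b, chr7:121734479-121768475 (+) for Scnn1g, chr8:105518755-105523988 (+) for Hsd11b2, chr6:117933559-117937692 (-) for Fxyd4 and chr8:76899442-77245012 (+) for Nr3c2. Values cover all annotated exons of each gene.

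Likeness of pattern was measured as the root-mean-square difference over the 17 libraries between log2(CPM + 0.5) values centred on the mean of each gene. Scnn1b and Scnn1g were each other's closest gene among all tested (0.148), and Scnn1b was the closest gene to Avpr2 (0.208). Outside the members, Aqp2 was close to Lix1 (0.308) and Adh1 (0.325), and Avpr2 was most alike to Chl1 (0.216), Cdca7l and Cldn8, Scnn1b to Cldn8 (0.22), Car15 and Cyb5rl, and Scnn1g to Aqp6 (0.194), Car15 and Chl1. Fxyd4 was most alike to Nhlrc4 (0.206), with Elf5 (0.328) also close, and Hsd11b2 to Tmem61 (0.255), Gm38392 and Rhcg. Cldn8 encodes a claudin of the distal nephron and Rhcg an ammonia channel of the collecting duct. Scnn1a was most alike to Bco1 (0.178), Atp1b1 and Slc22a23 rather than to the other ENaC subunits, Nr3c2 to Tmlhe (0.159), Dusp19 and Sphk2, and Aqp3 to Cdc42ep4 (0.156), Cln3 and Vhl. Its nearest member, Nr3c2, was only the 13230th closest gene to Aqp3. For Aqp4 the nearest genes were as far as 0.778 (Prox1), followed by Gm47967 and Gm7868.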

How the data were processed

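Kidney RNA of 17 mice was sequenced from TruSeq stranded mRNA libraries. The submitters' processing notes name Trim Galore 0.6.6, cutadapt 2.5 and STAR 2.7.9a with the builds hg38 and GRCm38, and the paper's methods name RSEM, while the transcripts listed are of mouse. The authors deposited expected counts per transcript, which are not normalized between libraries, and the authors deposited TPM per transcript, normalized for length and library total.

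Here 116770 of 119353 transcripts were matched to GENCODE M21 (GRCm38; 99.04% to 99.24% of counts) and summed to 35971 genes, and summed counts were rounded. No libraries were identical. The quasi-likelihood F-test of edgeR 4.0.16 was run under R 4.3.3 in 1 fit of all 17 libraries, with TMM factors, a minimum count of 10 (filterByExpr) and Benjamini-Hochberg adjustment over 17011 genes, two-sided, with a threshold of 0.05. DESeq2 1.42.0 and limma 3.58.1 on log2(TPM + 1) and log2(TPM + 0.1) were alternatives. Mice of a group were taken as replicates, and errors are SD unless named SE. All members are named. Of each other list, at most the 4 genes with the smallest adjusted p in a comparison with KI are named, and for likeness the 3 nearest genes. The members and lists were chosen with earlier results of these data known. Counting error alone sets the limit of 3 counts. Promoter sequence is from RefSeq. Some genes that these rules would name are not reported here.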

Additional observations from a re-analysis of the deposited data

How the results depend on the processing

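Of 1251 alternative values of single-gene log2 fold changes, 1112 kept their direction and side of the threshold, 74 lost and 32 gained significance and 33 changed sign. Of 332 alternative counts of members past the threshold, 291 stayed within 1.5 times the main count. The 102 values of sums and ratios with a library left out stayed within 1 SD. Leaving out 1 library cannot move the mean of its group by 1 SD of that group, so this does not test their stability. In Hif2α KO kidneys the mean summed TPM of the members was 566.4 and ranged from 401.9 to 650.1 with a library left out. In KI against Cre(-), 7 of the 9 calls (Aqp3, Avpr2, Scnn1a, Scnn1b, Scnn1g, Hsd11b2 and Fxyd4) were kept in all 17 alternatives other than the minimum fold. Where no cause is named, it was not tested.

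Counts moved as follows. In Hif1α KO against KI, DESeq2 called 1 higher (0 with edgeR), and the 1 lower became 0 without the filter, in a fit of both groups alone, with limma at either pseudocount and with a minimum log2 fold change of 1. In Hif2α KO against KI, the 0 higher became 2 with DESeq2 and 1 with library totals, and in DKO against KI the 3 higher became 6 with DESeq2. DESeq2 also called 1 higher (0 with edgeR) in DKO against Hif1α KO. Against Cre(-), the minimum fold took the 1 higher to 0 in all 3 knockouts. The 8 lower in Hif1α KO became 5 with library totals, 4 with limma at either pseudocount, 4 with the minimum fold, and 5 with the flox-bearing or the flox-free Cre(-) libraries alone. The 5 lower in Hif2α KO became 3 with library totals, limma at either pseudocount, the minimum fold or flox-bearing Cre(-) libraries alone. The 3 lower in DKO became 7 in a fit of both groups alone and 1 with limma at either pseudocount. With 1 library left out at a time, counts ranged from 0 to 1 (higher) and 0 to 2 (lower) in Hif1α KO against KI, 0 to 1 (higher) in Hif2α KO against KI, 0 to 4 (higher) in DKO against KI and 4 to 9 (lower) in Hif2α KO against Cre(-), the 9 without Hif2α KO replicate 3.

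Replicate numbers are shared between groups. Libraries of the same number did not deviate together: correlations of 31 pairs ran from -0.223 to 0.249, 4 were over 0.1, no comparison had every pair over it, and 3 of 17 libraries correlated best with their own number. With a replicate block the 1 member lower in Hif1α KO against KI (Nr3c2) became 0, and the other counts stayed within 1.5 times.

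Signs changed only for values that passed in neither setting. Aqp4 against KI was -1.29 in Hif1α KO and 0.18 and 0.79 with limma (pseudocounts 1 and 0.1), and -1.62 in Hif2α KO and 0.08 and 0.47 with limma. In DKO against KI, Scnn1a was 0.07 with library totals and 0.10 and 0.11 with limma, and Nr3c2 was 0.09, 0.08 and 0.10. Aqp2 in Hif2α KO against Cre(-) was 0.19 with library totals and 0.03 with limma at either pseudocount. In DKO against Cre(-), Aqp2 was -0.06 with flox-free and Aqp4 0.95 with flox-bearing Cre(-) libraries alone, Avpr2 was 0.00022 with limma at the pseudocount of 0.1, Scnn1b 0.09 with limma at either pseudocount, and Scnn1g 0.13 with library totals and 0.22 and 0.23 with limma. With 1 library left out at a time, Aqp4 ranged from -1.87 to 2.07 in Hif1α KO, -2.20 to 1.74 in Hif2α KO and -0.32 to 4.80 in DKO against KI, Scnn1a from -0.30 to 0.23 in Hif2α KO and -0.23 to 0.30 in DKO against KI, Nr3c2 from -0.10 to 0.03 in DKO against KI, and Aqp2 from -1.10 to 0.05 in Hif2α KO and -0.08 to 0.27 in DKO against Cre(-). Aqp4 held 0 to 130 counts in a library.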

Other observations

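Transcripts of the members were read as shares of the TPM of their gene, without a test. Aqp2, Scnn1g and Hsd11b2 were each measured through 1 transcript in every library. The longest Avpr2 transcript, of 2787 bases, made up 4.22% to 9.37% of Avpr2 TPM in Cre(-) kidneys and 15.3% to 29.1% in KI kidneys, with 11.8% to 25.0% in Hif1α KO, 14.2% to 30.9% in Hif2α KO and 8.20% to 21.3% in DKO kidneys. The KI and Cre(-) ranges of this share did not overlap. Its TPM did overlap, at 0.774 to 1.27 in Cre(-) and 0.673 to 2.34 in KI kidneys. The Avpr2 transcript of 1812 bases was 7.71 to 12.2 TPM in Cre(-) and 2.28 to 3.17 in KI kidneys. Avpr2 shares exon bases with Arhgap4, and how reads were divided between them was not tested.

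The Scnn1a transcript of 3499 bases carried most of Scnn1a in every group, with mean shares of 77.2% to 83.0%. That of 3354 bases was 13.6% to 16.7% of the gene in Cre(-) and lay below that range in every library of Hif1α KO (11.5% to 13.2%), Hif2α KO (11.1% to 12.7%) and DKO kidneys (6.53% to 10.3%), while KI kidneys spanned 11.5% to 22.1%. The Scnn1b transcript of 2591 bases, annotated as a target of nonsense-mediated decay, had mean shares of 13.5% to 15.6% across the 5 groups.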
